A study of Mus musculus with 6 samples.

Results

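Gm35082 is a long non-coding RNA gene of mouse chromosome 7 whose reads were found in the conditional knockout (cKO) libraries alone, and it is described here with 6 nearby protein-coding genes, Mrpl48, Rab6a, Plekhb1, Fam168a, Relt and Arhgef17. The 6 lie within 192 kb of it, and other protein-coding genes, Coa4, Dnajb13 and Ucp2 among those tested, lie closer than Arhgef17. These 7 genes were taken by name from a table of 55850 gene rows, and each was found once. Gm35082 was chosen for its difference between the genotypes, so its values are a description and carry no test. The neighbours were chosen by position, with their values already known. The samples are 6 RNA sequencing libraries of mouse testis, 3 labelled WT and 3 labelled cKO, with no treatment. The series title concerns SRSF2, which binds RNA and guides splicing, in Sertoli cells, the nurse cells of the seminiferous tubule, and the knockout is taken to be of Srsf2 in these cells. The labels themselves give the genotype as cKO and name no driver of the deletion, allele, strain or age, and do not say whether the samples came from separate animals. P-values thus reflect only how far these libraries differ from one another, which could be technical. Levels are in FPKM, a read abundance scaled to gene length and library depth, and numbers of reads per gene were recovered from them.

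Long non-coding RNAs are transcripts that encode no known protein, and the testis, above all its germ cells, is known for transcribing many of them. Some are known to act on the genes beside them and others are by-products of transcription or act elsewhere, so the neighbours of such a gene are the usual first place to look. No function is assumed here for Gm35082, which has only a predicted-gene name. Its neighbours have unrelated roles: vesicle traffic from the Golgi (Rab6a), a subunit of the mitochondrial ribosome (Mrpl48), a membrane protein with a pleckstrin homology domain (Plekhb1), a receptor of the tumor necrosis factor family (Relt) and a guanine nucleotide exchange factor (Arhgef17).

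In GENCODE M21, on GRCm38, Gm35082 (ENSMUSG00000108866) spans chromosome 7 from 100675088 to 100677760 on the plus strand and is intergenic. Plekhb1 ends 12.7 kb before it and Fam168a starts 28.9 kb after it. None of its exon bases overlaps an exon of another annotated gene. It has 2 annotated transcripts, of 338 and 525 bases, which share the first exon and the start of the last, and the longer one skips the middle exon. Together their exons cover 718 bases, the length the table used for FPKM. The exon sequences are shown because they decide which reads can be credited to the gene. Capitals mark bases lying in a run of 25 bases that also occurs, on either strand, in an M21 transcript of another gene.
Exon 1, chr7:100675088-100675163, plus strand: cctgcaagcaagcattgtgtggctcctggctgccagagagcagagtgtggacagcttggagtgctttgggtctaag
Exon 2, chr7:100676118-100676310, plus strand, only in the shorter transcript: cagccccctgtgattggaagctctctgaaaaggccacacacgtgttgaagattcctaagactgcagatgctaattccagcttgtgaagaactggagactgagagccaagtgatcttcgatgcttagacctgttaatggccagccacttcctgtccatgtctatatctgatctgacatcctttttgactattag
Exon 3, bases before the shared stretch, chr7:100677312-100677584, plus strand: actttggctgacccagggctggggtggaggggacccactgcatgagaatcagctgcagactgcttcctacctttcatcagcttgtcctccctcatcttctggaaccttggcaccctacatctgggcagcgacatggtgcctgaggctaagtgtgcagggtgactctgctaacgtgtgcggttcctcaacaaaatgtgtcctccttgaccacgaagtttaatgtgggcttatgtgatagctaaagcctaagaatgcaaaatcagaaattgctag
Exon 3, shared stretch, chr7:100677585-100677756, plus strand: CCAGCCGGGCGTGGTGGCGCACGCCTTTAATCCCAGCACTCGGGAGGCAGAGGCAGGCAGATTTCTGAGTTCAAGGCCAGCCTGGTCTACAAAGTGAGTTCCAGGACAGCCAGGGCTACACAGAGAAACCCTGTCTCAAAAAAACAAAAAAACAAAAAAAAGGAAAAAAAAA

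The last exon thus holds a run of 172 bases whose 25-base words also occur in transcripts of 3027 other genes, and 434 other genes share a 50-base word with the longer transcript. The run reads as a B1 element, an abundant short repeat of the mouse genome. The shorter transcript shares no 25-base word with another gene. Of the 718 exon bases, 546 are shared with no other gene by this measure and 172, or 24.0%, are shared. The table gives 1 value per gene and sample, so the part of the gene that its reads came from, and how the authors' counting treated reads matching several places, is not known here.

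The 300 bases around the first RefSeq start of Gm35082, from 250 before it to 50 after it (GRCm38.p6), are printed because the gene is the 1 member read in a single genotype. Capitals again mark words of 25 bases found in transcripts of other genes.
Gm35082 promoter, chr7:100674757-100675056, plus strand: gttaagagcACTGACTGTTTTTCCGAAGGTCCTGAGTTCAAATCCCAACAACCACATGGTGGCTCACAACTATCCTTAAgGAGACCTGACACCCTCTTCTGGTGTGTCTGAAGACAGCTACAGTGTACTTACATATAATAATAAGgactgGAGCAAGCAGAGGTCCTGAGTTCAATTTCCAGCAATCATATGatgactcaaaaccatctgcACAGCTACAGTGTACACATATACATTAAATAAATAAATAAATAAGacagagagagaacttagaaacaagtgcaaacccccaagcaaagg

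Of these 300 bases, 222 lie in words shared with transcripts of 1061 other genes, and the run at its start reads as a B2 element, another short mouse repeat. The window has a GC content of 41.0%, against a median of 52.7% over 32851 RefSeq promoters of the same length, of which 12.1% have a lower GC content. It holds 1 CpG, against a median of 7. Motifs were searched on both strands, and none is contained in another. The TATA box letters TATAAA occur in 13.6% of all promoters, the CCAAT box letters CCAAT in 37.4%, the GC box letters GGGCGG in 35.7%, the cyclic AMP response element TGACGTCA in 1.79% and the E-box CACGTG in 7.15%. No match to these letters lies in any of the 3 RefSeq windows of Gm35082, whose starts lie within 14 bases. The windows of Rab6a (62.7% GC), Fam168a (65.3%) and Relt (68.7%) are richer in GC. Those of Plekhb1 (49.0% and 52.3%) lie below the median of all promoters, and those of Mrpl48 run from 44.3% to 72.7%.

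For Plekhb1, the closest neighbour, the 250 bases before its first RefSeq start are shown, with capitals marking the match to CCAAT on the opposite strand. It begins at position -189 from the start site.
Plekhb1 promoter, chr7:100662395-100662644, minus strand: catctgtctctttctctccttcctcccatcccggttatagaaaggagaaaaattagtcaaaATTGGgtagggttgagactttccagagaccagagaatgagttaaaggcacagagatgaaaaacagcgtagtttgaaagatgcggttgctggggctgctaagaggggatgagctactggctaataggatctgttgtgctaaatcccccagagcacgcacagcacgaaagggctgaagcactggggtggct

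Libraries were of even depth, with 16070287 to 17281330 recovered reads. Srsf2, taken to be the targeted gene, was at 127, 96.7 and 102 FPKM in WT and 74.0, 87.3 and 87.3 FPKM in cKO samples. Its groups did not overlap. Other testis cells are known to express it too, and their part in its level was not tested. Markers of Sertoli cells, Leydig cells and germ cells were present, and the 4 spermatid markers summed to 1.26 FPKM at most, with Acrv1 listed at 0 in every WT sample. No gene of any marker list passed an adjusted p of 0.05 in limma, and the lists were not tested as a whole. By sign of the difference, cKO minus WT, 9 of 10 Sertoli genes had a negative difference (summed level 1344 to 1770 FPKM in WT, 981 to 1174 in cKO). All 7 tested of 8 germ cell genes had a positive one (126 to 222 and 168 to 250 FPKM). Zbtb16, the germ cell gene below the filter, had a lower mean in cKO (0.299 FPKM in WT, 0.206 in cKO). On the log2 scale all 5 endothelial genes had a negative difference and all 5 red blood cell genes a positive one. By mean FPKM the red blood cell gene Hba-a2 was lower in cKO (271 in WT, 220 in cKO), with WT replicate 3 at 594. Leydig (4 positive, 2 negative), peritubular myoid (2 and 2) and macrophage genes (4 and 2) went both ways. Of 7 nerve and glia genes the 4 tested had a negative difference, and 2 of the 3 below the filter, S100b and Gfap, had a higher mean in cKO. Reads of 18S ribosomal RNA made up 1.58 to 2.09% of WT and 0.727 to 0.835% of cKO libraries, and mitochondrial genes 1.66 to 1.98% and 2.39 to 2.97%. The part of these differences in the values below was not tested, and in bulk tissue fewer cells of a type and less RNA per cell cannot be told apart.

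Gm35082 had no read in any of the 3 WT libraries and 41, 32 and 26 reads in cKO replicates 1, 2 and 3. The genotypes did not overlap, and all 3 cKO libraries had reads credited to the gene. It was the 1 gene of 55850, or 0.00179%, absent from all WT libraries that reached 10 reads in every cKO library, and 0 genes had the reverse pattern. As FPKM these are 3.34, 2.53 and 2.22, a cKO mean of 2.70 ± 0.582 (SD, n = 3). The 95% exact Poisson intervals of the reads are 29.4 to 55.6, 21.9 to 45.2 and 17.0 to 38.1, so the cKO libraries overlap one another within counting error, the only error these intervals cover. For a count of 0 a floor of 3 reads was set, or 0.263, 0.249 and 0.256 FPKM in WT replicates 1, 2 and 3. The upper end of the exact 95% Poisson interval of 0 reads is 3.69. With 3 reads set for the whole WT group, the share of all reads credited to Gm35082 would be 32.2-fold higher in cKO. That ratio describes the reads that chose the gene, leaves out the error of the cKO reads and is not a lower limit. The gene passed the filter on a mean of at least 1 FPKM over the 6 samples through its cKO values alone.

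**Figure D1:**
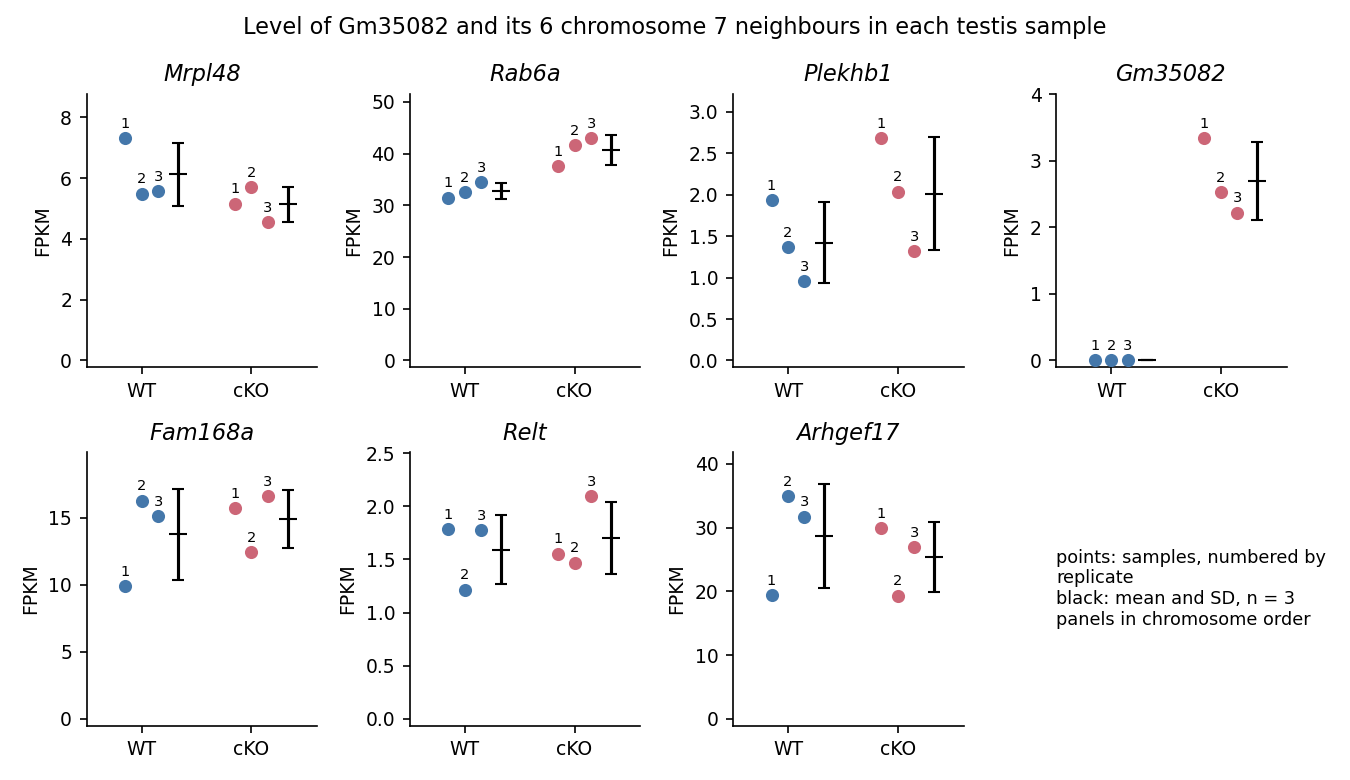
FPKM (vertical axis, from 0) of Gm35082 and its 6 neighbours in each WT and cKO sample, numbered by replicate, with the mean and SD of 3 samples per group in black. Gm35082 is at 0 in all WT samples and between 2.22 and 3.34 FPKM in cKO, Rab6a is higher in every cKO sample, and the groups of the other 5 genes overlap.

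Genes read in a single genotype were common, but almost all had very few reads. There were 2741 genes with no WT read and some cKO read, with a median of 2 reads over the 3 cKO libraries, and 3269 genes with the reverse pattern. After Gm35082, with 99 cKO reads, the next largest total was 25, for Gm10488, which had no read in cKO replicate 1. By the lowest of the 3 cKO libraries Gm35082 had 26 reads, and the next genes, Gm44075, Olfr641 and 4930589P08Rik, had 3. Gm8522 and Mhrt, a long non-coding RNA gene, followed with 2. In the reverse pattern the highest was Gm43504, with 6, 5 and 5 WT reads, followed by C230053D17Rik with a lowest value of 3, and AU040972, Dupd1 and Gm12091 with 2. The rule that chose Gm35082 used this contrast, so its rank supports nothing beyond the choice.

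**Figure D2:**
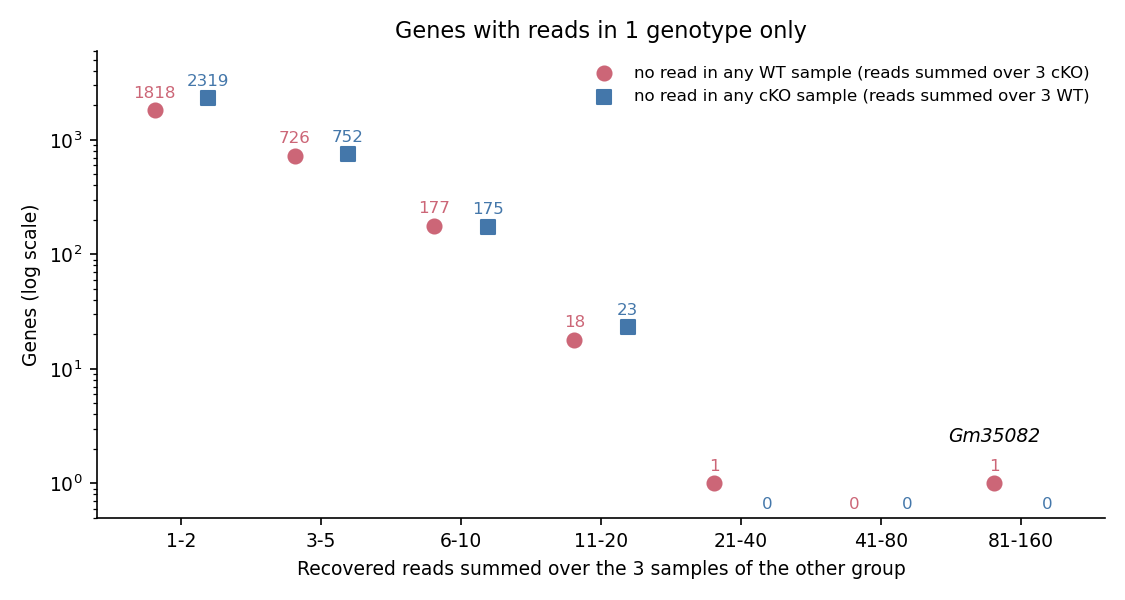
Number of genes (log scale) with no read in any sample of 1 genotype, by the reads summed over the 3 samples of the other genotype (horizontal axis, classes of reads). Counts fall alike in both directions, from 1818 and 2319 genes with 1 to 2 reads to 18 and 23 with 11 to 20, and Gm35082 is the 1 gene above 40 reads.

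The neighbours were compared in a limma fit of log2(FPKM + 1) over all 14238 genes with a mean of at least 1 FPKM, cKO minus WT. Of the 6 neighbours, 0 passed an adjusted p of 0.05, 4 had a positive difference and 2 a negative one, with a median of 0.09 on the log2 scale. At an unadjusted p under 0.05 there was 1, Rab6a. In all 2 of the 14238 genes passed, or 0.014%, with 1 in each direction (0.00702%). Gm35082 was the higher one, which its choice had already used. The groups did not overlap for 1 of the 6, against 18.6% of all tested genes in either direction and 8.69% in the higher direction, a share near the background. Their levels in WT, on the FPKM scale, ran from Rab6a (32.8) and Arhgef17 (28.6) through Fam168a (13.8) and Mrpl48 (6.12) to Relt (1.59) and Plekhb1 (1.42). Within the first and the last of these pairs the samples overlapped, so their order is not settled.

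Rab6a encodes a small GTPase of the Golgi that directs vesicle traffic back to the endoplasmic reticulum and out to the plasma membrane. It was the neighbour whose samples separated by genotype. Its level was 31.5, 32.5 and 34.5 FPKM in WT and 37.5, 41.6 and 43.0 FPKM in cKO samples. Every cKO sample lay above every WT sample, and the spread within a group was smaller than the gap between the means. The means were 32.8 ± 1.55 and 40.7 ± 2.86 FPKM (SD, n = 3), so cKO stood at 124% of WT. The log2 difference was 0.30 (SE 0.11, 95% interval 0.04 to 0.56) and missed the threshold, with a limma adjusted p = 0.380. By an exact permutation test of the 6 log2(FPKM + 1) values, two-sided, p was 0.1, the lowest value this number of samples allows. The gene (ENSMUSG00000030704) lies on the plus strand from 100607410 to 100641268, ending 33.8 kb before Gm35082. Of its 3728 exon bases, 708 are also exon bases of Mrpl48 on the opposite strand. Whether the authors' counting used strand is not stated here, so reads from that part cannot be told apart and both genes are uncertain.

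Mrpl48, the gene head to head with Rab6a (ENSMUSG00000030706, minus strand, 100545751 to 100608301), encodes a protein of the large subunit of the mitochondrial ribosome. Its level was 7.32, 5.49 and 5.56 FPKM in WT and 5.15, 5.70 and 4.55 FPKM in cKO samples. WT replicate 1 was high, and cKO replicate 2 lay above the other WT samples, so the groups overlapped. The log2 difference was -0.21 (SE 0.14, 95% interval -0.54 to 0.12, limma adjusted p = 0.547), opposite in sign to that of Rab6a. Leaving out WT replicate 1 gave -0.09.

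Plekhb1 encodes a membrane-bound protein with a pleckstrin homology domain, known from the retina and nervous tissue. It is the closest neighbour (ENSMUSG00000030701, minus strand, 100642892 to 100662414) and is transcribed away from Gm35082. Its level was 1.93, 1.36 and 0.958 FPKM in WT and 2.68, 2.03 and 1.32 FPKM in cKO samples, from 114, 85 and 58 reads and 170, 133 and 80 reads. The cKO mean was 142% of the WT mean, the largest ratio among the neighbours, but cKO replicate 3 lay below WT replicates 1 and 2, so the groups overlapped. The log2 difference was 0.31 (SE 0.23, 95% interval -0.21 to 0.83, limma adjusted p = 0.573). Leaving out a single sample moved it between 0.15 (cKO replicate 1 left out) and 0.49 (cKO replicate 3 left out), and it was 0.17 with WT replicate 3 left out. Among cKO samples both Plekhb1 and Gm35082 were highest in replicate 1 and lowest in replicate 3. With 3 such samples no relation was tested, and in WT, where Gm35082 had no read, Plekhb1 also ranged from 0.958 to 1.93 FPKM. Nerve and glia genes went both ways: among them, mean levels in WT and cKO were 18.5 and 13.5 FPKM for Tubb3, 4.35 and 2.96 for Sox10, 2.45 and 2.20 for Mbp, 0.406 and 0.456 for Gfap, and 0.457 and 0.805 for S100b. Their part in the level of Plekhb1 was not tested.

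Fam168a, downstream of Gm35082 on the same strand (ENSMUSG00000029461, 100706635 to 100841656), encodes a protein first named for resistance of tongue cancer cells to chemotherapy. Its level was 9.89, 16.3 and 15.1 FPKM in WT and 15.7, 12.4 and 16.6 FPKM in cKO samples. WT replicate 1 and cKO replicate 2 were low and the other 4 samples lay close together, so the groups overlapped. The log2 difference was 0.13 (SE 0.19, 95% interval -0.32 to 0.58, limma adjusted p = 0.791), and without WT replicate 1 it was -0.08.

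Arhgef17 encodes a guanine nucleotide exchange factor, a protein that switches on small GTPases (ENSMUSG00000032875, minus strand, 100869752 to 100932107). Its level was 19.4, 34.9 and 31.7 FPKM in WT and 29.9, 19.3 and 26.9 FPKM in cKO samples. The same samples as for Fam168a, WT replicate 1 and cKO replicate 2, were lowest, at nearly the same value. The log2 difference was -0.15 (SE 0.24, 95% interval -0.71 to 0.41, limma adjusted p = 0.803). It was -0.40 with WT replicate 1 left out, and turned to 0.01 or 0.03 when WT replicate 2 or cKO replicate 2 was left out. It rests on 3326 to 6318 reads per sample. The small RNA gene Mir3102 lies within its exons and had no read in any sample.

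Relt, a receptor of the tumor necrosis factor family (ENSMUSG00000008318, minus strand, 100845847 to 100863446), was at 1.78, 1.22 and 1.78 FPKM in WT and 1.55, 1.47 and 2.09 FPKM in cKO samples. The groups overlapped in part, with cKO replicate 3 above every WT sample and WT replicate 2 below every cKO sample. The log2 difference was 0.06 (SE 0.17, 95% interval -0.33 to 0.45, limma adjusted p = 0.890), from 67 to 112 reads per sample. It turned to -0.05 when WT replicate 2 was left out and to -0.04 when cKO replicate 3 was. The interval allows a change of either sign, so equal levels in the 2 genotypes were not shown.

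**Figure D3:**
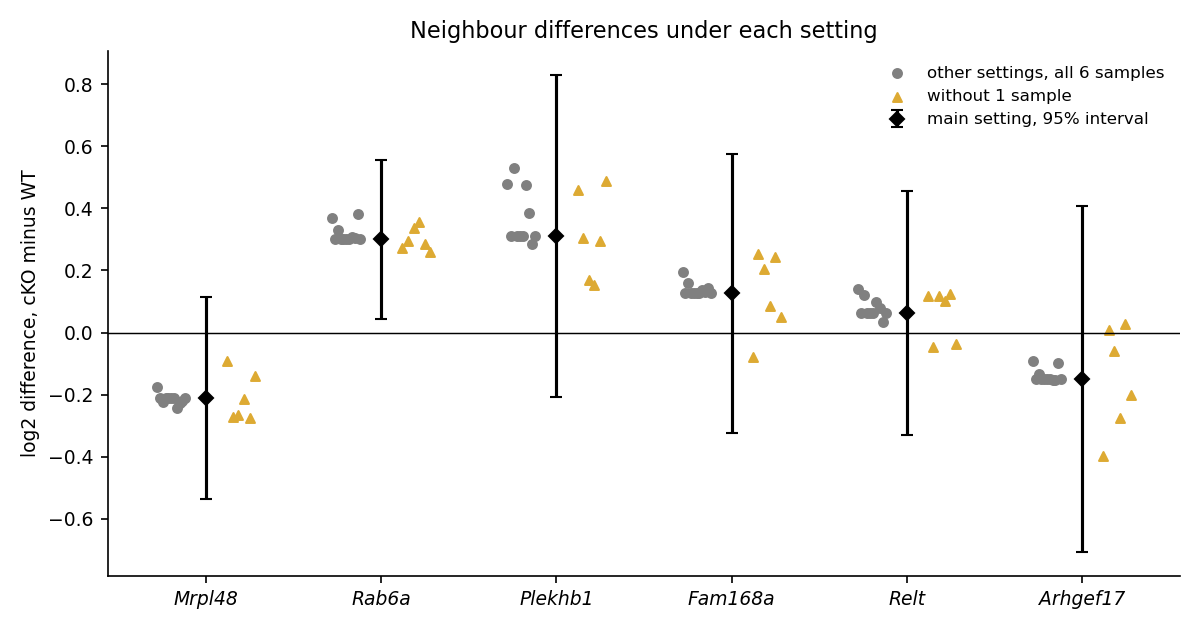
log2 difference, cKO minus WT, of each neighbour: black diamonds give the main setting with its 95% interval, grey circles the other settings with all 6 samples, and triangles the fits without 1 sample. Rab6a stays between 0.26 and 0.38, while Fam168a, Relt and Arhgef17 take both signs when a sample is left out.

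The wider region was read by distance. Apart from Gm35082, 37 annotated genes lie within 500 kb of it, all with a row in the table, and 15 of them were tested. Among the 15, 0 passed in either direction, 12 had a positive difference (50.8% of all tested genes did), and the median was 0.08 on the log2 scale against 0.00 over all genes and -0.07 over the 1050 other tested genes of chromosome 7. The median deviation of these genes from their own means over the 6 samples, on the log2 scale, was -0.10, -0.020 and -0.0039 in WT and 0.085, -0.093 and 0.16 in cKO, so the groups overlapped. The pooled SD within groups was 0.0997. It is the spread of single samples and not the error of a difference between group means, and that difference was not tested. Leaving out WT replicate 1 left 9 of 15 positive. The groups did not overlap for 2 of the 15, Rab6a and Pgm2l1, both higher in cKO. This was 13.3%, against 18.6% of all tested genes in either direction and 8.69% in the higher direction. Within 100 kb the median of the 4 tested genes was 0.21, within 250 kb that of 10 genes was 0.10 and within 1 Mb that of 26 genes was 0.06. The nearest 20 tested genes, out to 670 kb, had 12 positive and 8 negative differences, 0 past the threshold and 4 without overlap.

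Beyond the neighbours, the largest differences within 500 kb were those of Pgm2l1, Ucp2 and C2cd3. Pgm2l1 makes glucose bisphosphate, a cofactor of sugar-phosphate mutases, and lies 396 kb from Gm35082. It was at 4.08, 4.71 and 3.97 FPKM in WT and 5.24, 6.53 and 6.04 FPKM in cKO samples, without overlap. Its log2 difference of 0.40 did not pass (SE 0.12, limma adjusted p = 0.372). Ucp2, a carrier of the inner mitochondrial membrane, was at 42.5 ± 7.27 and 47.4 ± 4.01 FPKM, and C2cd3, a centriole gene, at 3.91 ± 1.21 and 4.32 ± 0.706 FPKM (SD, n = 3). Both overlapped between genotypes (limma adjusted p = 0.660 and 0.780).

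**Figure D4:**
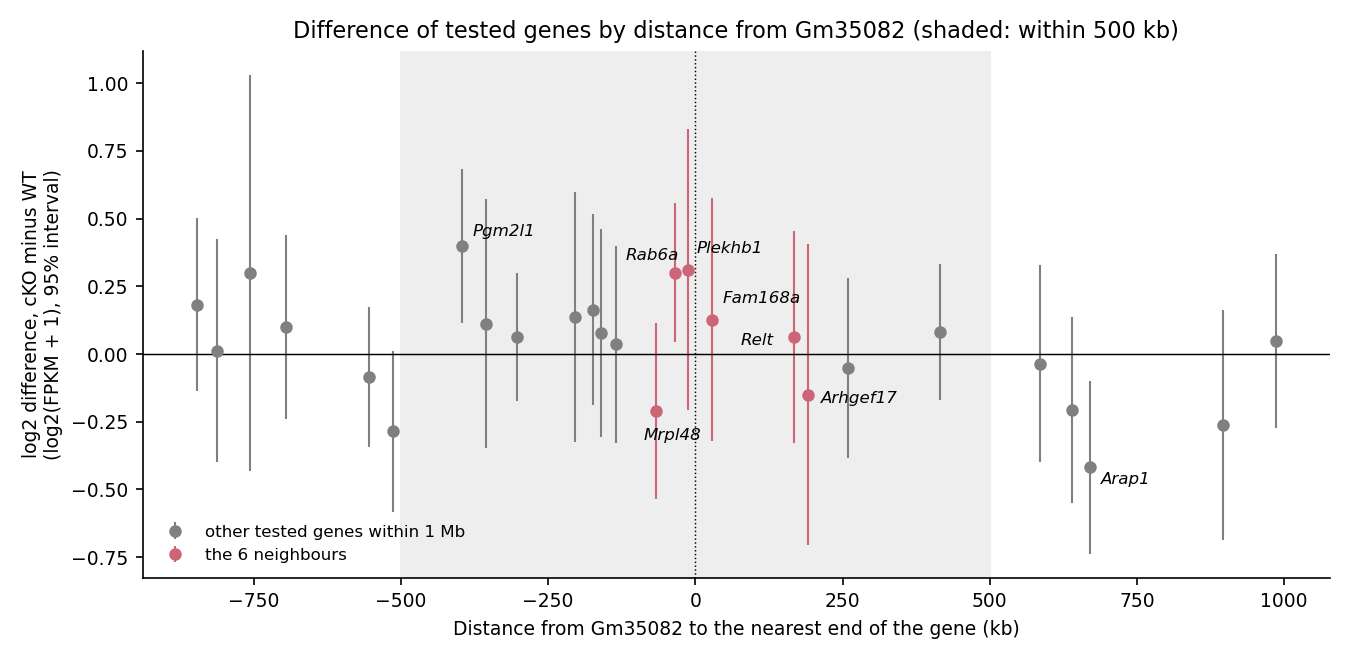
log2 difference, cKO minus WT, with its 95% interval for each tested gene within 1 Mb (vertical axis) against the distance from Gm35082 in kb (horizontal axis, negative towards lower coordinates). The 6 neighbours are in red and lie between -0.21 and 0.31, inside the range of the other 20 genes.

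The 22 genes within 500 kb that fell below the filter were also read. They include 3 other long non-coding RNAs, Gm10603, Gm34821 and Gm39059, with 66 and 49, 11 and 1, and 3 and 2 reads summed over WT and cKO samples. None of the 22 had reads in cKO samples alone, and 7 had no read at all. P2ry2, a nucleotide receptor gene, had 188 WT and 119 cKO reads.

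Genes related to the neighbours by sequence or pathway were compared in the same fit. Of 7 relatives 6 were tested and 0 passed. Rab6b, the relative of Rab6a, had a log2 difference of 0.11 (95% interval -0.24 to 0.45). That of Plekhb2 was 0.04, of Fam168b -0.03, of Rell1 0.04, of Arhgef10 0.03 and of Arhgef10l -0.26. Rell2 fell below the filter at 0.299 FPKM in WT. Fam168b, at 79.2 ± 7.05 FPKM in WT, stood well above Fam168a.

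Of 22 genes of the RAB6 circuit (its exchange factor, its GTPase-activating protein and effectors) 21 were tested, 0 passed, and 13 had a positive difference, with a median of 0.06. Rab6a itself is among them, and the groups did not overlap for 5, or 23.8%, against 18.6% of all genes. Kif5b, the heavy chain of a kinesin motor, was at 21.2, 24.0 and 24.2 FPKM in WT and 27.8, 32.0 and 32.1 FPKM in cKO samples, a log2 difference of 0.39 (limma adjusted p = 0.372). Gcc2, a golgin that tethers vesicles, was at 5.33 ± 0.599 and 6.73 ± 0.303 FPKM (SD, n = 3), likewise without overlap.

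Of 48 tested genes named Mrpl with a number, 36 had a negative difference and 12 a positive one, the median was -0.11, and 0 passed. Mrpl48, at -0.21, stood within that range, with 17 of the 48 below it. The groups did not overlap for 6, all lower in cKO (12.5% against 9.92% of all tested genes in that direction), among them Mrpl54 (log2 difference -0.73), Mrpl14 (-0.83) and Mrpl34 (-0.48, from 61.2 ± 8.09 to 43.4 ± 2.89 FPKM, SD, n = 3).

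Of 7 genes of the RELT family and its partners 5 were tested, 0 passed, 4 had a positive difference, and the median was 0.06. The groups overlapped for all 5, too few genes to set against the 18.6% of all genes that did not overlap. Their largest difference was that of Stk39, a kinase (0.21 on the log2 scale).

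Likeness to the level of Gm35082 over the 6 samples was described by Pearson correlation of log2(FPKM + 1). Since Gm35082 was at 0 in WT and chosen for that, the measure largely ranks genes by how they separate the genotypes, and it carries no test. The highest were Tiparp (0.99), Pik3cb (0.99), Cdkn1a (0.99), Cnot2 (0.98) and Myzap (0.98), on chromosomes other than 7. Tiparp, an ADP-ribosyltransferase gene, was at 7.95, 8.41 and 8.19 FPKM in WT and 11.6, 11.3 and 11.2 FPKM in cKO samples. Cdkn1a, the p21 cell cycle inhibitor, was at 1.34, 1.21 and 1.36 and 2.47, 2.17 and 2.04 FPKM. Among the neighbours the correlation was 0.85 for Rab6a, 0.60 for Plekhb1, 0.26 for Fam168a, 0.15 for Relt, -0.20 for Arhgef17 and -0.57 for Mrpl48.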

How the data were processed

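RNA of 6 mouse testis samples (3 WT, 3 cKO) was extracted with Trizol and made into libraries with a SMARTER mRNA-Seq kit, per the labels' protocols. The authors deposited expression as FPKM, in 1 table. The submitters' processing notes name the builds GRCm38 and mm10, with aligner, counter and strand setting not given in the sources used here. Only 1551 of 52133 matched identifiers have the start GENCODE M21 gives on GRCm38, so printed positions are those of M21 by identifier. FPKM times gene length was divided by a step per library, taken from its smallest nonzero products. This gave whole reads (tolerance 0.01) for 99.9997% of values, counting values without reads as whole.

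The main test was limma 3.58.1 (R 4.3.3) with a trend on log2(FPKM + 1), mean FPKM of at least 1, Benjamini-Hochberg over 14238 genes, threshold 0.05; this scale understates changes of low genes. It was tested on simulated data, where it made more false calls than its threshold allows for. Genes were named by the members, by distance (the 3 largest differences within 500 kb), by likeness to Gm35082, by rank of reads in 1 genotype, as relatives, and as up to 3 lowest p per list. Members and lists were chosen with earlier results of these data known. Alternatives were other pseudocounts (0.1, 0.5), filters, scalings, fits, a replicate block, voom on recovered reads (at least 10 in at least 3 samples) and leaving out each sample. Splicing was not analysed here, and 1 list and some single genes are not reported here. Python 3.11.15, pandas 2.3.3 and scipy 1.17.1 were used.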

Additional observations from a re-analysis of the deposited data

How the results depend on the processing

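No neighbour passed in any of the 17 other fits. Rab6a kept non-overlapping groups and a positive sign in all 17 (0.26 to 0.38, limma adjusted p 0.241 to 0.842). Only the other scalings and voom could have made its groups overlap, since the rest keep the order of the samples. Mrpl48 stayed negative (-0.28 to -0.09) and Plekhb1 positive in the 16 fits that tested it (0.15 to 0.53). Leaving out 1 sample, Fam168a ranged from -0.078 to 0.25, turning without WT replicate 1, Relt from -0.046 to 0.12, turning without WT replicate 2 and cKO replicate 3 (-0.04), and Arhgef17 from -0.40 to 0.027, turning without WT replicate 2 (0.01) and cKO replicate 2. The 2 genes called over the table became 1 with a pseudocount of 0.1 or 0.5, a mean FPKM of at least 5, the TPM scale or voom (except with voom, the call lost was the higher one, Gm35082, which is under the FPKM filter of 5), and 0 without a filter, with the replicate block or without any 1 sample. The causes were not tested. Replicate numbers showed no steady pairing: deviations of same-numbered samples correlated at 0.09, -0.33 and 0.39, and WT replicate 1 was closest to cKO replicate 2 (0.35). The 0.39, of replicates 3, was the highest of all pairs. With 3 samples per group this check cannot decide whether samples were paired. The block left all 6 neighbours uncalled, with Rab6a at 0.30 (limma adjusted p = 0.422).

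Within 500 kb, genes without overlap numbered 2 of 15, against 18.6% over all genes. They were 4 of 30 with no filter (11.6% over all genes) and 4 of 18 with voom (17.4%). Without 1 sample they were 2 to 5 of 15 (23.2 to 37.6%). Other windows gave 1 of 4 within 100 kb, 1 of 10 within 250 kb and 4 of 26 within 1 Mb. The median difference within 500 kb stayed positive, at 0.04 to 0.17 without 1 sample. Within 100 kb, where 4 genes were tested, it was 0.21. Gm35082's cKO mean was 2.37 to 2.94 FPKM without 1 cKO sample and 9.31 on the TPM scale, which rescales every library to the same sum and shifted the median of all genes to 0.07. Low reads limit Gm35082, Plekhb1 and Relt.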
